A study of Mus musculus with 26 samples.

Results

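Deletion of Dnmt3a from mouse oocytes that already lacked a low-complexity domain (LCD) of Tet3 was examined at the level of polyadenylated RNA in germinal vesicle (GV) oocytes. The compared libraries were 2 from double knockout oocytes (DKO, with the alleles Dnmt3af/f and Tet3 LCDf/f and the Zp3-Cre transgene) and 2 from oocytes with the Tet3 domain deleted alone (LCD KO 6 and 7, Tet3 LCDf/f with Zp3-Cre). They were chosen by their labels as the DKO libraries and the LCD KO libraries of the same sequencing batch, batch 3, and are 4 of the 26 libraries in the deposited table. All features of the table were examined, and 11160 genes passed the filter on low counts. Both groups carried the Zp3-Cre transgene, which is driven by the promoter of a zona pellucida gene that is active in growing oocytes, so the deletion of the Tet3 domain and the presence of Cre were shared, and the floxed Dnmt3a allele separated them. Of the other batch 3 libraries, 2 were Dnmt3a KO (Dnmt3af/f; Zp3-Cre), 2 were labelled Tet3 KO (Tet3f/f; Zp3-Cre) and 2 were WT (Tet3 LCDf/f with no Cre). Each library was a pool of 10 oocytes that the labels call a biological replicate, and the sources used here give neither strain nor age. They also do not say whether pools came from different females, so p-values measure the spread between these pools.

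GV oocytes are fully grown, transcriptionally quiet oocytes that still hold their large nucleus. DNMT3A is the enzyme that sets DNA methylation de novo during oocyte growth, mostly across transcribed gene bodies, and TET3 oxidises methylated cytosine. Methylation of a CpG-rich promoter usually goes with a silent gene, while methylation inside a transcribed gene usually goes with activity, so a transcript can be higher or lower when methylation is lost. DNA methylation was not measured in these libraries.

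Total counts were 2653218 to 3514236 in the 4 compared libraries, and 13908 to 14521 genes had at least 1 count. Summed over 10 oocyte markers such as Zp3 and Gdf9, the level was 19124 and 14961 CPM (counts scaled by library size) in DKO, against 16631 and 15661 CPM in LCD KO. The 15 granulosa or cumulus cell markers summed to 67.3 and 80.9 CPM in DKO, against 93.4 and 86.5 CPM in LCD KO, and Amh, Lhcgr, Ptx3 and Tnfaip6 were at 0 in these libraries. The 11 theca or stroma markers summed to 21.5 and 30.9 CPM in DKO, against 33.7 and 28.8 CPM in LCD KO, with Cyp17a1, Lum and Acta2 at 0. The 12 blood or immune markers summed to 24.6 and 29.4 CPM in DKO, against 13.1 and 9.14 CPM in LCD KO. Most of that last sum was the MHC class II gene H2-Aa, while Cd74, H2-Ab1, Hbb-b1 and Hba-a1 were at 0. In pooled cells, fewer cells of a type and less RNA per cell cannot be told apart.

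The targeted genes were read first. Dnmt3a had 112 and 111 CPM in the DKO libraries, against 464 and 410 CPM in the LCD KO libraries. Its log2 fold change was -1.97 ± 0.22 (± standard error, SE, n = 2 each; adjusted p = 8.49e-05, edgeR's quasi-likelihood test with Benjamini-Hochberg adjustment over all genes tested, which is the test behind every adjusted p given without another name). Counts per gene cannot tell a lower transcript level from reads missing in the deleted exons. Tet3 had 73.8 and 65.2 CPM in DKO, against 61.1 and 83.3 CPM in LCD KO, and the groups overlapped (log2 fold change -0.06 ± 0.27, adjusted p = 0.994). The feature RGC-CRE, a Cre sequence, had 24.0 and 14.5 CPM in DKO, against 22.7 and 22.04 CPM in LCD KO, while both WT libraries held 0 counts. The 4 labels therefore stand beside low Dnmt3a in DKO alone, and beside Cre and similarly low Tet3 in both groups. The libraries labelled Tet3 KO stood apart from their label: Tet3 had 291 and 406 CPM there, against 178 and 247 CPM in WT, and Dnmt3a had 158 and 119 CPM there, against 351 and 391 CPM in WT. They only lend their spread to the test of DKO against LCD KO, and without them 28 genes were called in place of 33. The LCD KO libraries of batch 2 (LCD KO 4 and 5), used below for levels in other batches, carry Zp3-Cre in their label and gave mixed readings. On a CPM scale common to the 22 libraries with a stated batch, RGC-CRE was at 0 in both, against 15.8 to 21.1 CPM in LCD KO of batches 1 and 3. Tet3 had 169.9 and 207 CPM in them, against 43.0 to 74.6 CPM in LCD KO of batches 1 and 3. In WT on that scale, Tet3 had 438 CPM in batch 2, against 155 to 266 CPM in batches 1 and 3. The 3 other batch 2 libraries with Zp3-Cre in their label also had RGC-CRE at 0. The metallothionein gene Mt1 was high in every batch 3 group with Zp3-Cre and low in WT. It had 256 and 260 CPM in LCD KO 4 and 5, against 1.84 CPM in WT of batch 2. Several results that rest on LCD KO 4 and 5 are therefore given with and without them. Ranges over LCD KO of the other batches include them.

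Between DKO and LCD KO, 33 genes passed an adjusted p of 0.05, which is 0.296% of the genes tested. Of these, 23 were higher in DKO (0.206%) and 10 were lower (0.0896%), and all 33 differed by at least 2-fold, with the smallest log2 fold change at 1.05 in size and a median size of 2.02. The median over all genes tested was 0.01. The values of DKO and LCD KO did not overlap in all 33 genes, while 34.9% of all genes tested had values that did not overlap. The largest rises were in genes at or near 0 in LCD KO and in Mtfr2, a mitochondrial fission regulator. The largest fall was in Tuba3b, an alpha-tubulin isotype best known from testis. The count of 33 became 20 without DKO 1 and 19 without LCD KO 6, and lay at 24 and 25 without each of the others.

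**Figure D1:**
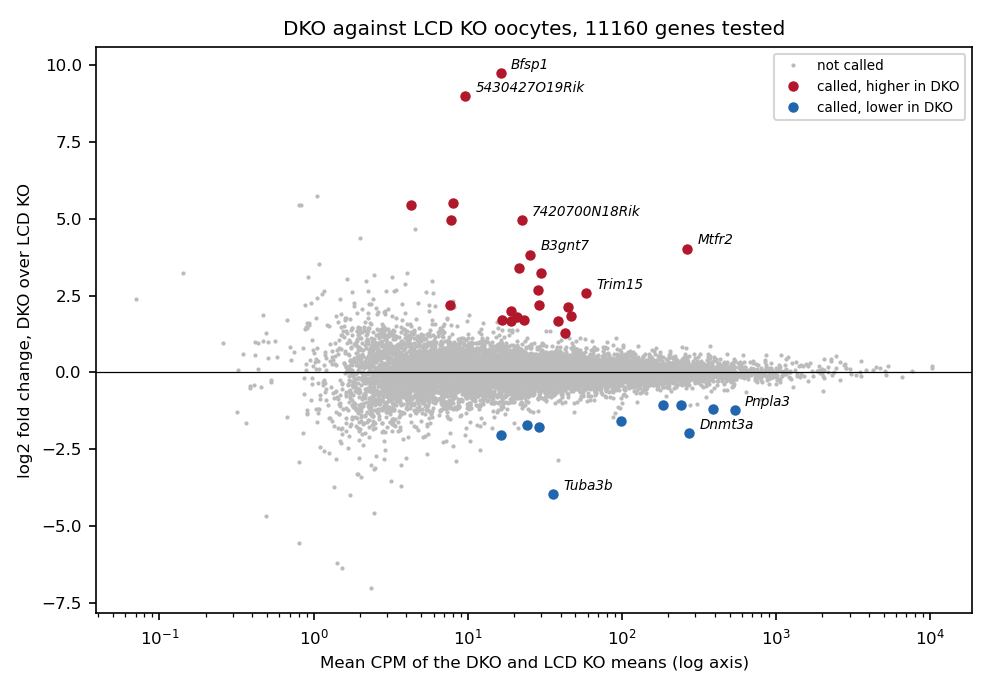
Log2 fold change of DKO over LCD KO on the vertical axis against the mean level in CPM over the 4 libraries on a logarithmic horizontal axis, 1 point per gene with counts in them, with called genes in red where higher and in blue where lower in DKO. Most genes lie around 0, genes at 0 in a group have fitted values that are no bound, and Mtfr2 stands at 4.03 while Tuba3b stands at -3.96.

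The promoters of the 5 genes with the smallest p are shown because they differ widely in CpG content, the substrate of DNMT3A. Each window runs from 250 bases before to 50 bases after the transcription start in RefSeq (GRCm38.p6), on the minus strand for Bfsp1 and on the plus strand for the others, and capitals mark CpG sites. Mtfr2 (chr10:20347569-20347868) holds 24 CpG sites, Bfsp1 (chr2:143863124-143863423) holds 4, 7420700N18Rik (chr8:31367499-31367798) holds 3, 5430427O19Rik (chrX:85870023-85870322) holds 2 and Tuba3b (chr6:145615713-145616012) holds 16.
Mtfr2: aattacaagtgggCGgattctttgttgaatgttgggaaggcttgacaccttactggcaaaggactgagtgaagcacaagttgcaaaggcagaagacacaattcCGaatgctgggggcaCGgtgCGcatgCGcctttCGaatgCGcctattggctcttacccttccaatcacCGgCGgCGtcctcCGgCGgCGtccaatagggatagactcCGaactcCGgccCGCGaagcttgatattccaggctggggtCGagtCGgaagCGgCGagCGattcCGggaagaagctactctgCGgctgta
Bfsp1: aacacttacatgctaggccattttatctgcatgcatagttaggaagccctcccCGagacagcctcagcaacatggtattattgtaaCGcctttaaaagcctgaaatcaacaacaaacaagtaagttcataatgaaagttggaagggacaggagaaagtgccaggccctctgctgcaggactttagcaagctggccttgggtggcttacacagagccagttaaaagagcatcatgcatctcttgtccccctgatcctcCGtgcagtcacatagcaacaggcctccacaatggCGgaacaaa
7420700N18Rik: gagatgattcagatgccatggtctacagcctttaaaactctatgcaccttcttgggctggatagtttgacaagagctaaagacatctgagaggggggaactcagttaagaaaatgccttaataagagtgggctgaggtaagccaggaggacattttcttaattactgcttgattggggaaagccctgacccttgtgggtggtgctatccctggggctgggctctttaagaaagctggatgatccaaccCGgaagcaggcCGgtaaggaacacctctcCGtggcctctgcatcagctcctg
5430427O19Rik: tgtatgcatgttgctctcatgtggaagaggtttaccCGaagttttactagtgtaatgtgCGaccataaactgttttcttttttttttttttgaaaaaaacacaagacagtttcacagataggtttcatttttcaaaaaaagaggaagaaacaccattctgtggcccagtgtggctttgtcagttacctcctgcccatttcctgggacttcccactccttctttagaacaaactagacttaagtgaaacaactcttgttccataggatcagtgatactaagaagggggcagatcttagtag
Tuba3b: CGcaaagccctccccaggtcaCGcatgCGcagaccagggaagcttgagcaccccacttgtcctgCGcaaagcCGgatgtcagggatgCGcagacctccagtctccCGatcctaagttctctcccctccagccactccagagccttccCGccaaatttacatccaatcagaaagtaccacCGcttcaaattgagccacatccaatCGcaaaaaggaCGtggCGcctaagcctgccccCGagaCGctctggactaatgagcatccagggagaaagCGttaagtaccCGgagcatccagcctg
Tuba3b was lower in DKO, and the other 4 of these genes were higher. RefSeq windows were at hand for 16 of the 23 genes higher in DKO, for 5 of the 10 lower genes and for 8811 of the 11160 genes tested. The median number of CpG sites per window was 12.75 in the higher genes and 15 in the lower genes, beside 20.5 in all genes tested. The observed-to-expected CpG ratio had medians of 0.591 in the higher genes and 0.565 in the lower genes, beside 0.754 in all genes tested. The motif TCCCGC was searched on both strands as a core of E2F-type sites, and a gene counted if any of its windows matched. It was present in 1 of 16 higher genes (6.25%) and in 4 of 5 lower genes (80.0%). Beside these stood 38.7% of the tested genes with a window and 19.98% of all 32851 windows. The 4 lower genes were Tuba3b, Pnpla3, Csrp1 and Dnmt3a, the deleted gene itself. The palindrome CACGTG also holds a CpG site, as TCCCGC does. It was present in 2 of 16 higher genes and in 1 of 5 lower genes, beside 11.7% of the tested genes and 7.15% of all windows. A match describes letters in the window and is not a bound site.

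Mtfr2 encodes a protein that promotes mitochondrial fission. It had 581 and 418 CPM in DKO, against 23.1 and 37.6 CPM in LCD KO, and the groups were far apart. The log2 fold change was 4.03 ± 0.28 (n = 2 each, adjusted p = 2.62e-07). WT lay between them, at 96.5 and 79.5 CPM, and the Dnmt3a KO libraries had 270 and 216 CPM. The libraries labelled Tet3 KO had 322 and 343 CPM. Of the 32 measured genes for mitochondrial fission and fusion, Mtfr2 alone was called higher and 0 were called lower. The median of that list was 0.16, beside 0.01 for all genes tested, and 24 of its 32 members had positive values, beside 51.7% of all genes tested. Its related gene Mtfr1 had a log2 fold change of 0.53 ± 0.23 (adjusted p = 0.653), the fission GTPase gene Dnm1l had 0.32 ± 0.23 (adjusted p = 0.896), and the mitochondrial outer membrane protein gene Slc25a46 had 1.37 ± 0.57 (adjusted p = 0.642).

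Several transcripts at or near 0 in LCD KO of batch 3 were present in DKO. Bfsp1, which encodes filensin, an intermediate filament protein of the eye lens, had 31.4 and 33.9 CPM in DKO and 0 counts in LCD KO, which makes it at least 70.8-fold higher (floor of 3 counts over the group; adjusted p = 1.08e-05). Within batch 3 it was also at 0 in the Dnmt3a KO and WT libraries and had 41.1 and 39.2 CPM in the libraries labelled Tet3 KO. Bfsp1 thus appeared in DKO of batch 3 without appearing in Dnmt3a KO. On the scale of the 22 libraries, it had 27.8 and 29.4 CPM in DKO, against 10.3 and 9.98 CPM in LCD KO of batch 2 and 0 in LCD KO of batch 1. WT had 1.03, 1.89 and 1.93 CPM in batch 1 and 0 in batch 2. The call of Bfsp1 was lost in the fit of 22 libraries with terms for group and batch (adjusted p = 0.052), and it was kept in that fit without LCD KO 4 and 5 (adjusted p = 2.61e-07). The X-linked gene 5430427O19Rik had 17.0 and 21.4 CPM in DKO and 0 counts in LCD KO, at least 41.1-fold higher (adjusted p = 7.58e-05), and it had 9.91 and 17.99 CPM in Dnmt3a KO, against 0 and 0.301 CPM in WT. The long noncoding RNA 2610037D02Rik had 93 counts in DKO and 2 counts in LCD KO, a ratio of 49.4 with an exact 95% counting interval of 13.3 to 414 (adjusted p = 0.001). It was at 8.67 and 12.4 CPM in Dnmt3a KO and at 0 in WT. Within batch 3, these 2 transcripts were thus seen with Dnmt3a deleted, whether or not the Tet3 domain was present. The libraries labelled Tet3 KO held them too, at 16.7 and 12.5 CPM for 5430427O19Rik and 10.3 and 6.39 CPM for 2610037D02Rik. On the scale of the 22 libraries, 2610037D02Rik had 10.01 and 17.5 CPM in DKO. It was not absent elsewhere, at 0 to 3.35 CPM in LCD KO of the other batches and 1.57 to 2.41 CPM in WT of batch 1.

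The olfactory receptor gene Olfr283 had 49 counts in DKO and 1 count in LCD KO, a ratio of 52.0 with an interval of 8.91 to 2097 (adjusted p = 0.0267), and 4921517D22Rik had 91 counts in DKO and 3 in LCD KO, a ratio of 32.2 with an interval of 10.7 to 159 (adjusted p = 0.0136). Intervals and floors cover counting error only, since the reads carried no molecular identifiers. Olfr283 belongs to a large family of similar genes, and the sources used here do not say how reads with several alignments were counted. Olfr283 was no longer called by DESeq2 or without DKO 2, LCD KO 6 or LCD KO 7, and 4921517D22Rik was no longer called without DKO 1, DKO 2 or LCD KO 6 or with the 22 libraries fitted as groups within batches. The long noncoding RNA 7420700N18Rik had 43.3 and 43.9 CPM in DKO, against 0.355 and 2.15 CPM in LCD KO (log2 fold change 4.97 ± 0.47, adjusted p = 1.32e-05). It was also higher in Dnmt3a KO, at 29.3 and 39.9 CPM, against 12.1 and 6.63 CPM in WT. Its call was lost in the fit with terms for group and batch once LCD KO 4 and 5 were left out (adjusted p = 0.0723). On the scale of the 22 libraries, 7420700N18Rik had 38.3 and 37.9 CPM in DKO. LCD KO had 25.5 to 36.6 CPM in batch 1 and 10.04 and 13.97 CPM in batch 2. On that scale 4921517D22Rik had 11.0 and 15.5 CPM in DKO, against 2.01 to 13.1 CPM in LCD KO of batch 1. WT of batch 1 had 9.27 to 12.6 CPM of it, and LCD KO of batch 2 had 0.346 and 0.352 CPM.

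**Figure D2:**
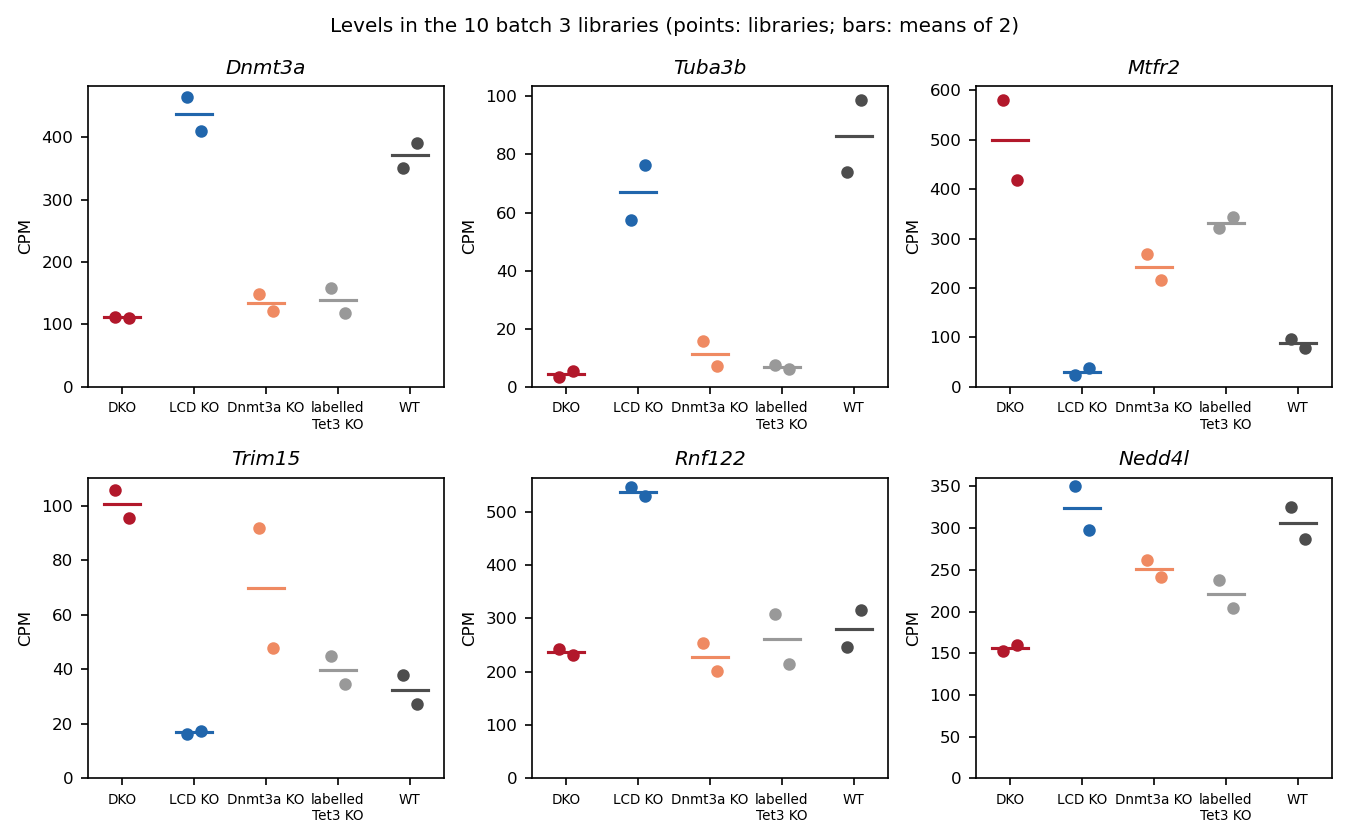
Levels of 6 genes in CPM on linear axes from 0, for the 10 batch 3 libraries in the order DKO, LCD KO, Dnmt3a KO, labelled Tet3 KO and WT, with 1 point per library and a bar at the mean of 2. Mtfr2 is at 581 and 418 CPM in DKO with both LCD KO libraries under WT, while Rnf122 is at 242 and 231 CPM in DKO and stands higher in LCD KO than in any other group.

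Further rises were seen in genes for enzymes and a transporter. B3gnt7, a glycosyltransferase that extends N-acetyllactosamine chains, had 48.7 and 45.8 CPM in DKO, against 4.97 and 1.88 CPM in LCD KO (log2 fold change 3.83 ± 0.43, adjusted p = 7.58e-05). Fut10, a member of the fucosyltransferase family, had 45.8 and 61.8 CPM in DKO, against 7.46 and 4.03 CPM in LCD KO (3.25 ± 0.44, adjusted p = 0.000732). Both LCD KO libraries lay below every other batch 3 library for B3gnt7. On the scale of the 22 libraries, B3gnt7 had 43.1 and 39.6 CPM in DKO, below LCD KO 4 and 5 at 53.2 and 68.3 CPM. LCD KO of batch 1 had 0 to 1.82 CPM of it. WT had 2.32 to 7.22 CPM in batch 1 and 61.4 CPM in batch 2. Gpat3, which catalyses the first step of glycerolipid synthesis, had 37.6 and 58.0 CPM in DKO, against 8.88 and 11.6 CPM in LCD KO (2.21 ± 0.31, adjusted p = 0.001). It rose in Dnmt3a KO as well, to 45.0 and 49.1 CPM, against 1.78 and 1.81 CPM in WT. Slc4a3, an anion exchanger, had 28.6 and 50.3 CPM in DKO, against 4.26 and 3.22 CPM in LCD KO (3.39 ± 0.46, adjusted p = 0.000732). In Dnmt3a KO it was lower, at 2.48 and 0.486 CPM, against 12.5 and 12.05 CPM in WT. Slc4a3 was the gene called in opposite directions in these comparisons. The calls of Fut10, Gpat3 and Slc4a3 were lost in the fit of 22 libraries with terms for group and batch (adjusted p = 0.075, 0.253 and 0.659). They were also lost in that fit without LCD KO 4 and 5, with an adjusted p of 0.0558 for Slc4a3.

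Among regulators and RNA-binding proteins, Trim15, a tripartite motif protein of focal adhesions, had 106 and 95.4 CPM in DKO, against 16.3 and 17.5 CPM in LCD KO (2.57 ± 0.31, adjusted p = 0.000228). Rbm44, a germ cell RNA-binding protein, had 55.2 and 43.9 CPM in DKO, against 11.0 and 4.84 CPM in LCD KO (2.68 ± 0.34, adjusted p = 0.000332). The long noncoding RNA D16Ertd519e had 60.5 and 84.3 CPM in DKO, against 19.5 and 14.0 CPM in LCD KO (2.12 ± 0.28, adjusted p = 0.000528). In these 3 genes each DKO library was higher than both LCD KO libraries by a wide margin, and in the fit of 22 libraries with terms for group and batch Trim15 alone of them kept its call (adjusted p = 0.329 for Rbm44 and 0.132 for D16Ertd519e). Without LCD KO 4 and 5 in that fit, Rbm44 kept its call too (adjusted p = 0.00872). Cnbd2, named for a cyclic nucleotide binding domain, was also among the 15 largest rises, with a log2 fold change of 2.19 ± 0.46 (adjusted p = 0.0471), and its call was lost without any 1 of the 4 libraries. The other 8 called rises had log2 fold changes of 1.28 to 2.02. They included Top3a, a topoisomerase, at 68.5 and 77.8 CPM in DKO, against 18.5 and 22.3 CPM in LCD KO, and Myo10, a myosin of filopodia, at 57.2 and 60.6 CPM in DKO, against 15.3 and 21.0 CPM in LCD KO. They also included the cyclin gene Ccng2, the centrosomal protein gene Cep19, the G protein subunit gene Gng10, and Zfp707, Creg1 and Btbd9. The calls of Cep19, Gng10, Creg1 and Btbd9 were lost without any 1 of the 4 libraries, that of Ccng2 without DKO 2 or either LCD KO library, that of Zfp707 without DKO 1 or either LCD KO library, that of Top3a without DKO 2 or LCD KO 6, and that of Myo10 without LCD KO 6. In the fit of 22 libraries with terms for group and batch, the calls of Myo10 (0.85, adjusted p = 0.804), Top3a (1.14, adjusted p = 0.238), Gng10 (1.11, adjusted p = 0.435) and Ccng2 (1.18, adjusted p = 0.229) were lost. Myo10 also lost its call with the 22 libraries fitted as groups within batches (adjusted p = 0.279). Without LCD KO 4 and 5 in the fit with terms for group and batch, Myo10, Top3a, Gng10 and Ccng2 were not called either. The values of Top3a were chosen for mention after they were seen.

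Tuba3b headed the falls. It had 3.40 and 5.34 CPM in DKO, against 57.5 and 76.3 CPM in LCD KO (log2 fold change -3.96 ± 0.39, n = 2 each, adjusted p = 1.71e-05). WT had 74.0 and 98.8 CPM and Dnmt3a KO had 15.7 and 7.05 CPM, so Tuba3b was low in both groups labelled as lacking Dnmt3a. It was also low in the libraries labelled Tet3 KO, at 7.44 and 6.11 CPM, where Dnmt3a was low against their label. Tuba3a, which encodes a near-identical tubulin, had a log2 fold change of -0.16 ± 0.27 (adjusted p = 0.984), and the counting could have split reads between the copies. Of 17 measured tubulin genes, Tuba3b was called lower and 0 were called higher, with a list median of -0.13. Tuba1c, for which the next smallest p was found, had -0.50 ± 0.22 (adjusted p = 0.664).

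The other falls belonged to varied classes. Got1l1, a relative of aspartate aminotransferase, had 5.09 and 8.01 CPM in DKO, against 28.8 and 23.9 CPM in LCD KO (-2.02 ± 0.37, adjusted p = 0.0175). Tnfsf11, the cytokine known as RANKL, had 9.34 and 17.2 CPM in DKO, against 50.1 and 38.7 CPM in LCD KO (-1.76 ± 0.33, adjusted p = 0.025). It was not low in Dnmt3a KO, which had 57.8 and 44.7 CPM, against 44.1 and 26.2 CPM in WT. Csrp1, a LIM domain protein that binds actin structures, had 13.01 and 9.54 CPM in DKO, against 32.7 and 42.2 CPM in LCD KO (-1.72 ± 0.30, adjusted p = 0.0126). Dctn6, a dynactin subunit, had 41.3 and 57.6 CPM in DKO, against 175 and 123 CPM in LCD KO (-1.59 ± 0.26, adjusted p = 0.00727). These 4 genes lost their calls without DKO 1 and in the additive fit of 22 libraries, and also without LCD KO 6 for Got1l1, Tnfsf11 and Dctn6 and without DKO 2 or LCD KO 7 for Csrp1. Without LCD KO 4 and 5 in the additive fit, Tnfsf11 and Dctn6 kept their calls (adjusted p = 0.017 and 0.00271).

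Further falls were in a lipid enzyme gene and in ubiquitin ligase genes. Pnpla3, a lipid droplet hydrolase, had 299.9 and 345 CPM in DKO, against 692 and 814 CPM in LCD KO (-1.22 ± 0.22, adjusted p = 0.0126). Its level in the libraries labelled Tet3 KO was 2.82 and 2.50 CPM, against 359.8 and 475 CPM in WT. Rnf122, a RING-type ubiquitin ligase, had 242 and 231 CPM in DKO, against 547 and 529 CPM in LCD KO (-1.19 ± 0.23, adjusted p = 0.0267). Nedd4l, a HECT-type ubiquitin ligase, had 152 and 159.8 CPM in DKO, against 351 and 297 CPM in LCD KO (-1.05 ± 0.21, adjusted p = 0.0291). The DKO values of Rnf122 were near WT, at 246 and 316 CPM, whereas those of Nedd4l were below WT, at 325 and 287 CPM. The calls of Rnf122 and Nedd4l were lost without any 1 of the 4 libraries, and that of Pnpla3 without DKO 1, DKO 2 or LCD KO 7. In the fit of 22 libraries with terms for group and batch, Rnf122 (-0.81, adjusted p = 0.493) and Pnpla3 (-1.02, adjusted p = 0.0737) lost their calls, and without LCD KO 4 and 5 Pnpla3 kept its call (adjusted p = 0.0493). Of 9 measured ligases of the NEDD4 family, Nedd4l was called lower and 0 were called higher, with a list median of -0.17. Of the 9, 3 had an unadjusted p below 0.05, beside 6.89% of all genes tested, and 2 had positive values. The lowest log2 fold change of the list was -1.30, in another member that was not called.

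The 33 genes were also set against WT of the same batch, a description whose order is in part fixed by the choice of genes that differ between DKO and LCD KO. Of the 23 genes higher in DKO, the DKO mean lay above WT in 22 and the LCD KO mean lay below WT in 17, beside 63.6% and 63.3% of all tested genes with a higher mean in DKO. Of the 10 genes lower in DKO, the DKO mean lay at or below WT in 10 and the LCD KO mean lay at or above WT in 8, beside 63.97% and 63.1% of all tested genes with a lower mean in DKO. Mtfr2 is an example with WT in between, and Rnf122 is an example in which LCD KO alone stood apart.

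Deletion of Dnmt3a with the Tet3 domain present was read from Dnmt3a KO against WT, which shares no library with DKO against LCD KO. These groups also differ in Cre and in which allele is floxed, and this cannot be told apart from the loss of Dnmt3a. There 54 genes were called (0.484% of the genes tested), 27 higher and 27 lower (0.242% each). Of the 33 genes called in DKO against LCD KO, 26 had the same sign there (78.8%), 17 of the 23 higher and 9 of the 10 lower genes, beside 60.3% of all genes tested. Values of Dnmt3a KO and WT did not overlap in the called direction in 23 of the 33 and in the opposite direction in 3, beside 33.6% of all genes tested on either side. The medians of those genes in Dnmt3a KO against WT were 0.96 for the higher and -0.81 for the lower genes, beside their own 2.57 and -1.66. In the other direction, 45 of the 54 genes (83.3%) had the same sign in DKO against LCD KO. Across all 11160 genes, the fold changes of the comparisons had Pearson's r of 0.314 and Spearman's rho of 0.287, a description across genes, which are not independent replicates.

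Calls in both comparisons were made for 10 genes, 30.3% of the 33 and 18.5% of the 54. These were Mtfr2, 7420700N18Rik, 5430427O19Rik, 2610037D02Rik, Gpat3 and Top3a, higher in both, Tuba3b, Dnmt3a and Got1l1, lower in both, and Slc4a3, higher in DKO and lower in Dnmt3a KO. Dnmt3a itself had a log2 fold change of -1.46 ± 0.22 in Dnmt3a KO against WT. Got1l1 had 3.30 and 1.94 CPM in Dnmt3a KO, against 22.4 and 26.2 CPM in WT. In the libraries labelled Tet3 KO against WT, 28 of the 33 genes had the sign of DKO against LCD KO (84.8%), beside 52.9% of all genes tested. Values of those libraries and WT did not overlap in the called direction in 23 of the 33 and in the opposite direction in 4, beside 40.1% of all genes tested on either side.

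**Figure D3:**
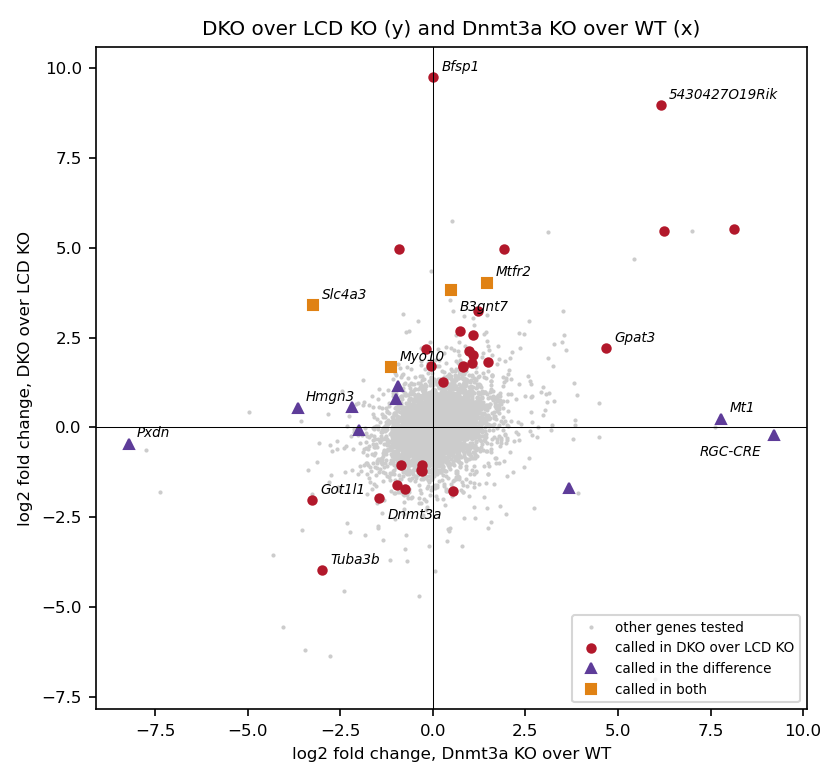
Log2 fold change of DKO over LCD KO on the vertical axis against that of Dnmt3a KO over WT on the horizontal axis, 1 point per gene tested, with genes called in DKO over LCD KO in red, genes called in the difference between the comparisons as purple triangles and genes in both as orange squares. Fitted values of genes at 0 in a group are no bound; Tuba3b and Dnmt3a lie low in both, Mtfr2 lies at 4.03 and 1.46, and Slc4a3 lies at 3.39 and -3.23.

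The difference between the comparisons was tested directly, as the fold change of DKO over LCD KO minus that of Dnmt3a KO over WT. It passed an adjusted p of 0.05 in 13 genes (0.116%), 10 with a positive (0.0896%) and 3 with a negative difference (0.0269%). Of the genes called in DKO against LCD KO, 4 were among them. Mtfr2 had a difference of 2.57 ± 0.36 (adjusted p = 0.00221), so its rise was larger where the Tet3 domain was absent. B3gnt7 had 3.34 ± 0.56 (adjusted p = 0.0148) and was not called in Dnmt3a KO against WT, at 32.6 and 20.2 CPM in Dnmt3a KO, against 23.8 and 13.3 CPM in WT. Slc4a3 had 6.62 ± 0.73 (adjusted p = 0.000146) and Myo10 had 2.82 ± 0.38 (adjusted p = 0.00146). Myo10 had 20.2 and 23.3 CPM in Dnmt3a KO, against 49.5 and 46.4 CPM in WT. For Tuba3b the difference was -0.97 ± 0.52 and for Dnmt3a -0.51 ± 0.31, and neither passed. The count of 13 became 6 without DKO 1 or without Dnmt3a KO 2.

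LCD KO libraries of other batches, 5 in all, were set beside those of batch 3. On the common CPM scale of the 22 libraries, both DKO values lay beyond the range of those 5 libraries in the called direction in 19 of the 33 genes. They lay within it in 13 genes and beyond it in the opposite direction in Dctn6. Among all genes tested, 26.3% had DKO values beyond that range on either side. Against the 3 LCD KO libraries of batch 1 alone, DKO lay beyond the range in the called direction in 25 of the 33 genes, within it in 6, and beyond it in the opposite direction in Dctn6 and Top3a, beside 53.2% of all genes tested on either side. Batch and genotype cannot be told apart in this reading, since every DKO library belongs to batch 3.

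Mtfr2 had 514 and 362 CPM in DKO on that scale, against 20.3 and 33.7 CPM in LCD KO of batch 3 and 39.0 to 159 CPM in LCD KO of the other batches. Tuba3b had 3.00 and 4.62 CPM in DKO, against 30.1 to 222 CPM in LCD KO of the other batches. Both genes thus kept DKO apart from every LCD KO library. Trim15 did not: DKO had 93.6 and 82.5 CPM, against 14.4 and 15.6 CPM in LCD KO of batch 3, 12.7 to 19.02 CPM in LCD KO of batch 1, and 135 and 126 CPM in LCD KO 4 and 5. Without those of batch 2, every LCD KO library lay below DKO for Trim15. In WT, Trim15 had 212 CPM in batch 2, 63.4 to 78.0 CPM in batch 1, and 32.9 and 24.3 CPM in batch 3. Top3a had 60.6 and 67.3 CPM in DKO, against 16.2 and 19.97 CPM in LCD KO of batch 3 and 58.8 to 81.5 CPM in LCD KO of the other batches. Dctn6 had 36.5 and 49.8 CPM in DKO, against 154 and 110.0 CPM in LCD KO of batch 3 and 19.96 to 29.8 CPM in LCD KO of the other batches. Got1l1 had 4.51 and 6.93 CPM in DKO, against 25.3 and 21.4 CPM in LCD KO of batch 3 and 2.91 to 5.23 CPM in LCD KO of the other batches. Tnfsf11 had 8.26 and 14.8 CPM in DKO, against 44.02 and 34.7 CPM in LCD KO of batch 3 and 4.04 to 13.5 CPM in LCD KO of the other batches. Fut10 had 40.6 and 53.5 CPM in DKO, against 6.56 and 3.61 CPM in LCD KO of batch 3 and 17.4 to 38.2 CPM in LCD KO of the other batches. In Mtfr2, Top3a, Dctn6, Got1l1, Tnfsf11 and Fut10 the batch 3 LCD KO libraries stood outside the range of the other LCD KO libraries. That held for both batch 3 LCD KO libraries in 12 of the 33 called genes (36.4%), beside 21.2% of all genes tested. Among those 12 were also 7420700N18Rik, D16Ertd519e, Gng10, Cep19 and Nedd4l. In WT of batch 3, Dctn6 had 185 and 123 CPM on the scale of that batch. On the common scale it had 18.6 to 27.4 CPM in WT of batch 1 and 61.4 CPM in WT of batch 2. Got1l1 and Tnfsf11 also had higher levels in WT of batch 3 than in WT of the other batches. Mtfr2 had lower levels there, and Top3a and Fut10 had overlapping ones.

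**Figure D4:**
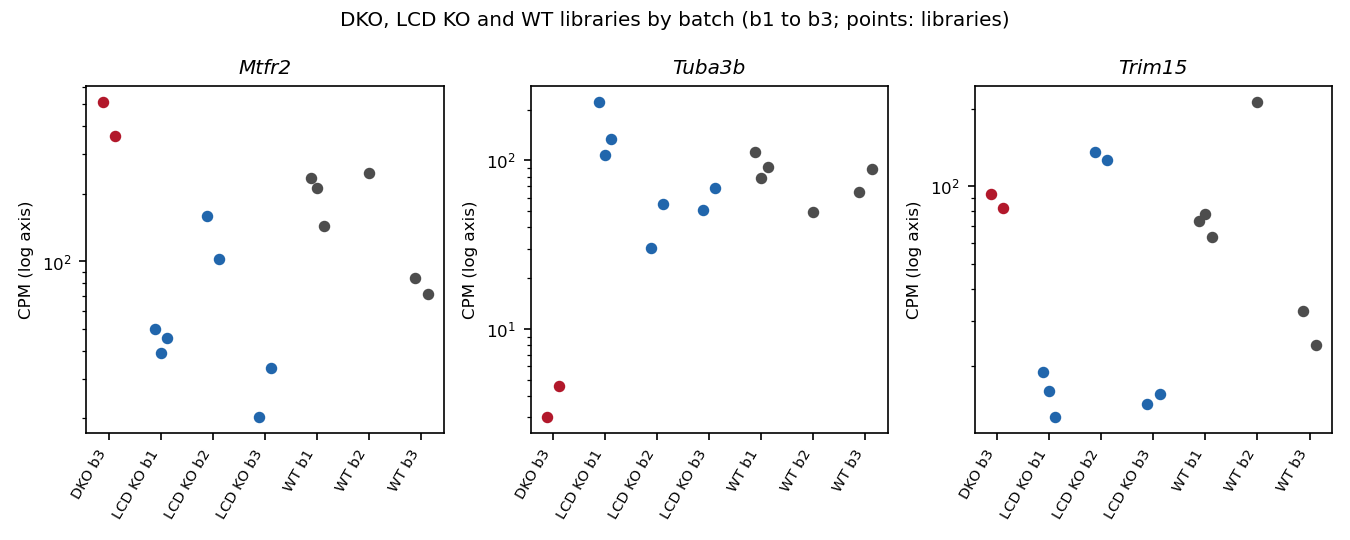
Levels of Mtfr2, Tuba3b and Trim15 in CPM on logarithmic axes, 1 point per library, for DKO of batch 3, LCD KO of batches 1 to 3 and WT of batches 1 to 3. DKO stands outside all LCD KO libraries for Mtfr2 and Tuba3b, while for Trim15 the batch 2 LCD KO libraries at 135 and 126 CPM stand above DKO at 93.6 and 82.5 CPM.

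Genes that the LCD deletion changed elsewhere were followed in DKO. In batches 1 and 2, with 12 libraries and 11388 genes tested, 822 genes were higher and 866 lower in LCD KO than in WT. Of the 811 higher genes measured in batch 3, 6 were called higher (0.74%) and 0 lower in DKO against LCD KO, with a median of 0.02. Of the 842 lower genes measured, 4 were called higher (0.475%) and 2 lower (0.238%), with a median of 0.03. Over all genes tested, 0.206% were called higher and 0.0896% lower. Both medians stood close to the 0.01 of all genes tested. The 4 genes lower in LCD KO there and higher in DKO here were Mtfr2, Trim15, Creg1 and Ccng2. Mtfr2 had a log2 fold change of -1.75 ± 0.23 and Trim15 of -1.65 ± 0.24 in LCD KO against WT of those batches. With batch 1 alone, which leaves out LCD KO 4 and 5, 1492 genes were higher in LCD KO, of which 5 were called higher (0.335%) and 1 lower (0.067%) in DKO against LCD KO. Of the 1352 lower genes measured there, 6 were called higher (0.444%) and 3 lower (0.222%), and Mtfr2 and Trim15 were again among the 6.

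Some called genes were neighbours. Gene order was taken from RefSeq (GRCm38.p6), which held 11140 of the 11160 genes tested and all 33 called genes. In a run of 6 consecutive tested genes, Got1l1, Eif4ebp1, Rnf122, Tti2, Fut10 and 7420700N18Rik, 4 were called, Got1l1 and Rnf122 lower and Fut10 and 7420700N18Rik higher in DKO. Eif4ebp1 had -0.36 ± 0.67 and Tti2 had 1.26 ± 0.78, neither called. Dctn6 lay 10 tested genes beyond 7420700N18Rik. Within 20 tested genes of each other there were 11 pairs of called genes, 10 of them among Got1l1, Rnf122, Fut10, 7420700N18Rik and Dctn6, and the other pair was 2610037D02Rik and Olfr283, 13 tested genes apart. The run thus held falls and rises side by side. Over all genes tested, 0.296% were called. The 10 pairs share the same few genes and so describe a single group, and whether such counts are unusual was not tested.

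**Figure D5:**
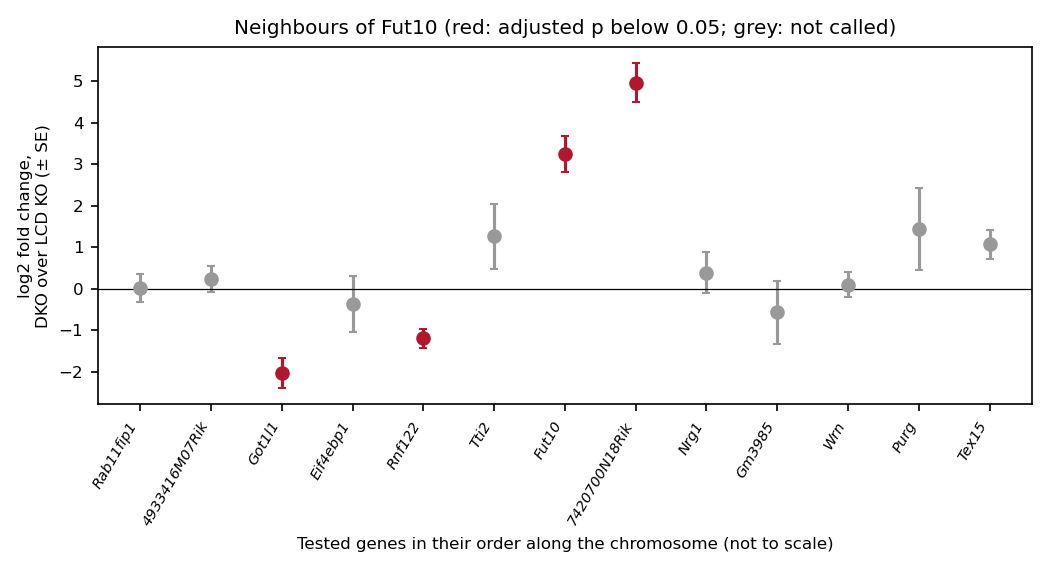
Log2 fold change of DKO over LCD KO with its standard error for the tested genes on either side of Fut10, in their order along the chromosome and not to scale, with called genes in red. Got1l1 and Rnf122 lie below 0, Fut10 and 7420700N18Rik lie above it at 3.25 and 4.97, and the genes between and beyond them were not called.

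Gene groups linked to DNA methylation had medians near that of all genes tested. Of 27 measured genes of the methylation machinery, Dnmt3a was called lower and 0 were called higher, with a list median of 0.09. Nlrp5, a maternal factor, had 0.54 ± 0.24 (adjusted p = 0.671), Kdm1b, the histone demethylase needed for imprint setting, had 0.45 ± 0.25 (adjusted p = 0.81) and Tet1 had -0.92 ± 0.51 (adjusted p = 0.811). Of 16 measured genes of methyl donor metabolism, 0 were called by edgeR or DESeq2 and 1 (6.25%) had an unadjusted p below 0.05, beside 6.89% of all genes tested. It was Mat2a, a synthase of S-adenosylmethionine, at 0.63 ± 0.24. The list median was -0.06. Apart from the deleted gene itself, the fit called none of these genes.

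Imprinted genes with a maternally methylated control region are a known readout of Dnmt3a loss in the embryo. In the oocyte RNA, 0 of 29 measured members were called by edgeR or DESeq2, where edgeR called 0.296% of all genes tested. An unadjusted p below 0.05 was found in 2, beside 6.89% of all genes tested, and the list median was 0.18. Sgce, an imprinted sarcoglycan gene, had 4.81 and 3.43 CPM in DKO, against 0.71 and 0.806 CPM in LCD KO, and 4.54 and 3.65 CPM in Dnmt3a KO, against 0.356 and 0.301 CPM in WT. Its levels were separate in both comparisons but low (log2 fold change 2.39 ± 0.75 in DKO over LCD KO, adjusted p = 0.364). The 2 measured genes with paternal methylation, Meg3 and Rian, had log2 fold changes of 0.19 and -0.03, and 0 were called by either tool or had an unadjusted p below 0.05.

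Of 37 measured germline genes sensitive to methylation, Tuba3b was called lower and 0 were called higher, and the list median was -0.06. An unadjusted p below 0.05 was found in 7 of the 37, beside 6.89% of all genes tested. Dmc1, the meiotic recombinase, had 7.64 and 4.20 CPM in DKO, against 0.71 and 1.07 CPM in LCD KO (2.67 ± 0.64, adjusted p = 0.101). Hormad1, a protein of the meiotic chromosome axis, had 19.2 and 14.5 CPM in DKO, against 44.7 and 36.3 CPM in LCD KO (-1.25 ± 0.33, adjusted p = 0.148). Values of opposite sign thus stood side by side in this group.

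No gene of the oocyte lists was called. Over all genes tested, 0.296% were called by edgeR and 6.89% had an unadjusted p below 0.05. Of 46 measured oocyte and maternal-effect genes, 0 were called by edgeR or DESeq2 and 4 had an unadjusted p below 0.05. Their log2 fold changes ran from -0.85, in Pabpn1l, a poly(A)-binding protein gene, to 0.58, with a median of 0.07. Of the 10 oocyte markers, 0 were called by either tool and 2 had an unadjusted p below 0.05. Genes of genome activation in the 2-cell embryo gave 0 calls by either tool among 10 measured, 0 with an unadjusted p below 0.05, and a median of -0.07. Of the other lists, p53 and DNA damage genes (26 measured, median 0.10, 1 with an unadjusted p below 0.05), histone modifiers (39 measured, median 0.07, 2), circadian clock genes (16 measured, median -0.15, 2) and stress and chaperone genes (34 measured, median -0.01, 3) gave 0 calls by either tool. Arntl2, a clock transcription factor, had -1.74 ± 0.44 in DKO over LCD KO (adjusted p = 0.136), and Xbp1, a transcription factor of the unfolded protein response, had 1.17 ± 0.38 (adjusted p = 0.4).

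Of 6 measured antigen presentation genes, 0 were called by edgeR and 2 had an unadjusted p below 0.05, beside 0.296% and 6.89% of all genes tested. Ifi30, a lysosomal thiol reductase, had 3.68 and 1.14 CPM in DKO, against 14.2 and 12.9 CPM in LCD KO (-2.40 ± 0.51, adjusted p = 0.051), and DESeq2 called it lower. H2-Aa had 20.7 and 25.9 CPM in DKO, against 9.23 and 5.91 CPM in LCD KO (1.63 ± 0.45, adjusted p = 0.214). Of the markers of other cell types that passed the filter, 4 of granulosa or cumulus cells, 2 of theca or stroma and 1 of blood or immune cells, 0 were called by either tool, and 1, 0 and 1 of them had an unadjusted p below 0.05. The granulosa marker Inha had 1.41 and 3.81 CPM in DKO, against 9.23 and 14.5 CPM in LCD KO (adjusted p = 0.4). The part of other cells in the called genes was not tested.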

How the data were processed

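The authors deposited raw read counts per gene symbol, without normalizing them. The submitters' processing notes name Trim Galore 0.5.0, HISAT2 2.1.0, featureCounts 1.6.4 and the build mm9. The sources used here do not give annotation, strand or the handling of multi-mapped reads, so overlapping, antisense and near-identical genes carry uncertain counts. Per the labels, cDNA of pooled oocytes was fragmented and sequenced with paired-end reads.

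The table had 24542 features, and 92 spike-in features were left out. The 2 columns of the group labelled as lacking Tet1, Tet2 and Tet3 were identical to those labelled Tet3 KO and were not used, which left 24 distinct libraries. Replicates of a group in batch 3 had a chi-square of 8.18 to 18.9 per degree of freedom. The 10 batch 3 libraries (2558479 to 4144414 counts) were fitted by group in R 4.3.3 by edgeR 4.0.16 (quasi-likelihood F test), with TMM factors, filterByExpr by group and robust dispersions, leaving 5 residual degrees of freedom. The estimate of DKO over LCD KO comes from their 4 libraries alone. CPM were computed from the counts with TMM factors, and SE as the fold change divided by the square root of F. Genes were called below an adjusted p of 0.05. A group at 0 was set to a floor of 3 counts, and ratios against 1 to 3 counts have exact binomial 95% intervals. The fitting was tested on simulated data.

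Genes were named as the 15 largest called rises and falls with values that do not overlap and at least 1 CPM on average in the higher group, the targeted genes and markers, called list members, up to 4 further members of a list by p, and up to 10 genes of the difference by p; the values of 1 gene called lower are not reported here. The compared libraries and gene lists were chosen with earlier results of these data known. Alternatives were DESeq2 1.42.0, other normalization, filters and dispersions, other libraries lending spread, leaving out each library and, chosen after seeing the data, leaving out LCD KO 4 and 5.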

Additional observations from a re-analysis of the deposited data

Results flagged for a closer look

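The effect of Dnmt3a deletion differed between oocytes without the Tet3 domain (DKO over LCD KO) and with it (Dnmt3a KO over WT) in 13 genes by a direct test of the difference (edgeR, adjusted p below 0.05). All differences below are on the log2 scale, the first comparison minus the second. WT carries no Cre, so a change that comes with Cre would appear in the second comparison alone.

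Mt1, a metallothionein, had the difference with the smallest p, at -7.54. It had 216 and 313 CPM in DKO, against 250.3 and 195 CPM in LCD KO, and 315 and 207 CPM in Dnmt3a KO, against 1.07 and 1.20 CPM in WT. RGC-CRE had -9.43, with 0 counts in both WT libraries. Within batch 3, both features were thus low in WT alone, and their levels in DKO and LCD KO overlapped. RGC-CRE was also at 0 in the LCD KO libraries of batch 2. Mt1 had 256 and 260 CPM in those libraries on the common CPM scale, against 1.84 CPM in WT of batch 2.

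Slc4a3 had 6.62, Myo10 had 2.82, Mtfr2 had 2.57 and B3gnt7 had 3.34, and these 4 were also called in DKO against LCD KO. Their values in each library are given above.

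The other genes were not called in DKO against LCD KO. Hmgn3, a nucleosome-binding protein gene, had 4.21, with 37.1 and 32.8 CPM in DKO, against 31.6 and 16.7 CPM in LCD KO, and 6.19 and 4.13 CPM in Dnmt3a KO, against 72.3 and 54.8 CPM in WT. Pxdn, a peroxidase of the extracellular matrix, had 7.77, and both Dnmt3a KO libraries held 0 counts, against 12.5 and 10.2 CPM in WT, while DKO had 17.8 and 9.92 CPM, against 17.0 and 21.2 CPM in LCD KO. Alyref2, an mRNA export factor gene, had 2.74, with 62.8 and 59.1 CPM in DKO, against 25.2 and 56.7 CPM in LCD KO, and 27.7 and 17.5 CPM in Dnmt3a KO, against 98.9 and 103 CPM in WT. In these 3 genes the Dnmt3a KO libraries were the lowest of the 4 groups, save for overlap of Alyref2 with LCD KO.

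Rwdd2a had 1.93, with 57.7 and 64.1 CPM in DKO, against 67.1 and 60.2 CPM in LCD KO, and 16.1 and 17.99 CPM in Dnmt3a KO, against 71.2 and 66.0 CPM in WT. Ccdc28a had 2.103, with 57.2 and 60.6 CPM in DKO, against 28.8 and 24.5 CPM in LCD KO, and 18.6 and 15.6 CPM in Dnmt3a KO, against 29.2 and 36.4 CPM in WT. Haus8, a subunit of the augmin complex of the spindle, had 1.80, with 65.4 and 82.0 CPM in DKO, against 41.9 and 43.3 CPM in LCD KO, and 32.6 and 29.7 CPM in Dnmt3a KO, against 61.2 and 63.8 CPM in WT. Defa29, of a family of similar defensin genes, had -5.35, with 2.55 and 2.67 CPM in DKO, against 4.97 and 11.6 CPM in LCD KO, and 16.9 and 21.9 CPM in Dnmt3a KO, against 2.85 and 0.301 CPM in WT. Ccdc28a and Haus8 thus had higher values in DKO than in the other 3 groups, with Haus8 in DKO 65.4 CPM at the lowest.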

How the results depend on the processing

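With groups of 2, few moderate changes can pass. None of the 33 genes called in DKO against LCD KO reversed in the 14 alternatives run for them. Outside the fits with terms for group and batch, the fold changes came from the compared libraries, whose values did not overlap. A reversal was hardly possible there, so its absence is no support for the calls. Of 462 gene values, 357 kept the call and 105 lost it. Mtfr2, Tuba3b, 5430427O19Rik, B3gnt7, Dnmt3a, Trim15 and 2610037D02Rik kept it in all 14, and 14 genes kept it without each library in turn. The fit of 22 libraries with terms for group and batch, in which LCD KO and WT of other batches enter, kept 16 of the 33 among its 37 calls, and without LCD KO 4 and 5, an alternative chosen after seeing the data, it kept 18 among 43. Counts of called genes moved by over 1.5 times as follows. With no filter they were 105 for DKO against LCD KO, 141 for Dnmt3a KO against WT and 29 for the difference. By DESeq2 they were 52, 88 and 21. With the 22 libraries fitted as groups within batches, DKO against LCD KO gave 61 and the difference 7. With terms for group and batch, Dnmt3a KO against WT gave 89 and the difference 8, and without LCD KO 4 and 5 Dnmt3a KO against WT gave 85. Without each library in turn, DKO against LCD KO gave 19 to 25, Dnmt3a KO against WT 22 to 41 (22 without Dnmt3a KO 2, 30 without WT 6), and the difference 6 to 13. The cause of these changes was not tested. For the difference, fitting only the 8 libraries compared is the same as leaving out the libraries labelled Tet3 KO (13 calls). No paired analysis was possible because DKO and Dnmt3a KO carry replicate numbers 1 and 2, LCD KO of batch 3 numbers 6 and 7, and WT of batch 3 numbers 5 and 6.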
